A study of Mus musculus with 11 samples.

Results

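The respiratory chain passes electrons from NADH and succinate to oxygen and couples this to ATP synthesis in the inner membrane of mitochondria. Complexes I to IV form the chain and complex V is the ATP synthase. Subunits of every complex other than complex II come from both genomes: the mitochondrial DNA encodes catalytic and proton-translocating core subunits, and the nucleus encodes the rest, including subunits that exist as tissue isoforms. Members were taken by gene symbol: the Ndufa, Ndufb, Ndufc, Ndufs, Ndufv, Uqcr, Atp5, Cox4, Cox5, Cox6, Cox7 and Cox8 families, Sdha to Sdhd, and the protein-coding mitochondrial genes, without symbols that end in -ps. This gave 116 of 55487 gene identifiers, of which 93 were nuclear protein-coding genes, 13 were mitochondrial genes, 9 were processed pseudogenes and 1 was an additional Atp5o identifier at 0 in all 11 libraries. The nuclear genes comprised 44 for complex I, 8 of which are Ndufaf assembly factors, 4 for complex II, 8 for complex III, 20 for complex IV and 17 for complex V. The mitochondrial genes comprised 7 for complex I, 1 for complex III, 3 for complex IV and 2 for complex V.

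The data are RNA sequencing of spinal cord and of mouse fetal fibroblasts (MEF, connective tissue cells grown from fetuses), all of the strain C57BL/6; age and sex are not in the labels. Animals with the genotype Morc2a p.S87L heterozygote, in which 1 allele of the chromatin regulator Morc2a carries leucine in place of serine, are called S87L and gave 3 spinal cord and 2 MEF libraries. Wild-type animals gave 3 spinal cord and 3 MEF libraries. No source says whether the libraries of a group are separate animals or cultures, and the spread behind each p-value may therefore be technical.

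Values are FPKM, the number of fragments per kilobase of gene and per M fragments of a library total. The total recovered from the values was 100.3% of the recovered reads of protein-coding genes in every library, and 95.1% to 96.5% of all recovered reads. Genotypes were compared inside each tissue with limma, a linear model that shares variance information across genes, over all genes whose mean FPKM reached 0.5. A gene counts as called where its adjusted p (Benjamini-Hochberg, over all genes tested) was under 0.05. Each fold change is a difference of log2(FPKM + 0.5), S87L minus wild-type, which understates changes of low genes. Reads recovered from the FPKM steps numbered 12.1 to 23.5 M per library. Neuronal and fibroblast markers matched the tissue labels. The 9 neuronal genes summed to 2083 to 2168 FPKM in the spinal cord libraries and 32.6 to 42.1 FPKM in the MEF libraries. The 8 meningeal and fibroblast genes summed to 23.0 to 48.5 FPKM in the spinal cord libraries and 3239 to 3775 FPKM in the MEF libraries. Microglial genes were nearer in level, with 7 genes at 195 to 266 FPKM in the spinal cord and 140 to 162 FPKM in the MEF libraries. In bulk tissue, fewer cells of a type and less RNA per cell cannot be told apart.

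The gene annotation holds nuclear copies of several mitochondrial genes, and how close a copy is bears on what a level in this table can mean. The sequences compare mt-Atp6, the proton channel subunit of complex V, and mt-Nd2, a proton-pumping subunit of complex I, each with its annotated nuclear copy on GRCm38. Capitals mark the bases that differ within a pair.
mt-Atp6, chrM:8216-8315, plus strand: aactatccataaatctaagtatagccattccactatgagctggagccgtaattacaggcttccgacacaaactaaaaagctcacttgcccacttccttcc
Gm10925, chr1:24614263-24614362, minus strand: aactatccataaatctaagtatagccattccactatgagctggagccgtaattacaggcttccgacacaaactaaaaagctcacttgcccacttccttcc
mt-Nd2, chrM:4647-4746, plus strand: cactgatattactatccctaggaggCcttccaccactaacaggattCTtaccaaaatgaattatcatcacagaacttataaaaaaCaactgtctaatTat
Gm13339, chr2:22590229-22590328, minus strand: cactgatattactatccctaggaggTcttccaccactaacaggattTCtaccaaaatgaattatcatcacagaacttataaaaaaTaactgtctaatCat

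The stretch of mt-Atp6 has no difference from its copy, and over the whole alignment 678 of 678 bases were identical. For mt-Nd2 and its copy, 5 bases differ in the stretch shown and 493 of 510 aligned bases were identical.

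The mitochondrial genes with the closest annotated copies were, together with mt-Atp8, which shares no 50-base words with annotated transcripts of other genes, the lowest of the 13. Only annotated transcripts were searched, so a share of 0% does not exclude an unannotated copy. Of the 50-base words of mt-Co2, mt-Co3, mt-Atp6, mt-Nd3 and mt-Nd4l, 98.0% to 100% also occur in genes elsewhere, for each of them mainly in an unprocessed pseudogene on chromosome 1 (between 24612407 and 24615565). These genes were listed at 0 to 32.2 FPKM in all 11 libraries. The share of shared words was 51.1% for mt-Co1, 62.2% for mt-Nd4, 8.19% for mt-Nd2, 7.61% for mt-Nd5 and 0% for mt-Nd1, mt-Cytb and mt-Nd6. In wild-type spinal cord mt-Co1, the catalytic subunit of cytochrome c oxidase, had 3862, 4771 and 4626 FPKM. Its partner subunit mt-Co2 had 12.6, 8.99 and 14.5 FPKM in the same libraries. These 2 core subunits of the same complex, which are cut from the same polycistronic transcript, thus stood far apart in the table, and the part of the nuclear copies in this was not tested.

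Levels at the low mitochondrial genes and at some of the copies also varied between libraries of 1 group. mt-Atp6 had 1.94, 1.23 and 4.95 FPKM in S87L spinal cord and 13.7, 1.79 and 22.7 FPKM in wild-type spinal cord. Gm28437, the copy of mt-Co3, had 5.26, 62.2 and 60.1 FPKM in S87L spinal cord and 62.7, 3.19 and 61.4 FPKM in wild-type spinal cord. Single libraries were thus low or high in both genotypes, and the groups overlapped for both genes. mt-Atp8, the small complex V subunit whose gene overlaps mt-Atp6, was at 0 in 10 of 11 libraries and had 0.355 FPKM, 1 read, in S87L MEF replicate 1. With 3 reads as the limit that a count of 0 allows, mt-Atp8 could lie at up to 0.647 to 1.28 FPKM per library. The genotype results on mitochondrial genes rest on mt-Nd1, mt-Nd2, mt-Nd4, mt-Nd5, mt-Nd6, mt-Cytb and mt-Co1.

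**Figure D1:**
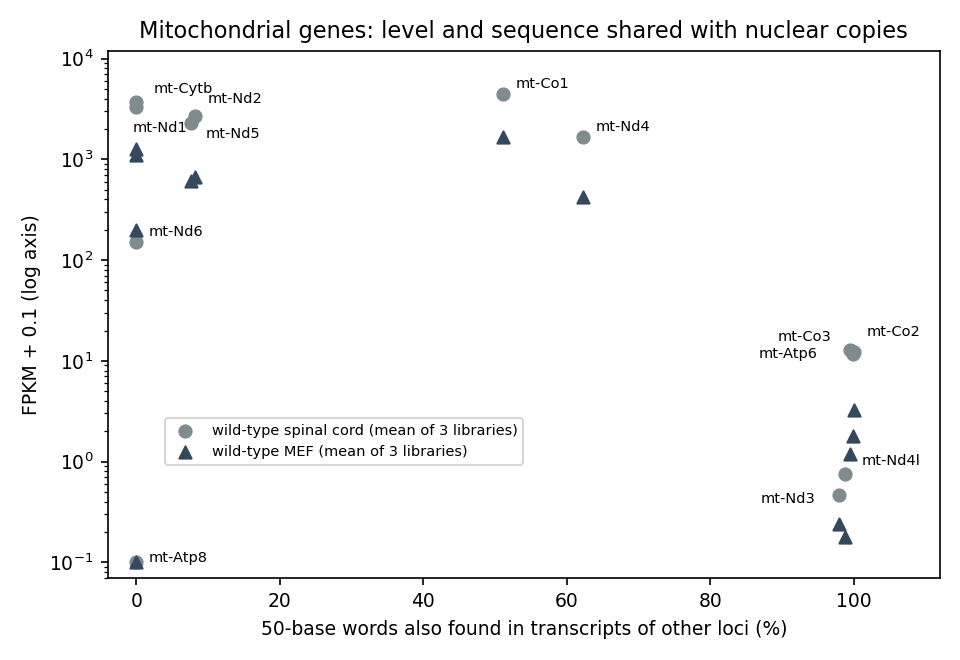
The share of 50-base words of each mitochondrial gene that also occur in annotated transcripts of other loci (x axis, percent) against its mean level in wild-type spinal cord and wild-type MEF (y axis, FPKM + 0.1, log axis, 3 libraries each). The 5 genes at 98.0% or more lie at the bottom right, together with mt-Atp8 at 0% at the bottom left, and the other 7 lie above 100 FPKM.

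In spinal cord, the expression of the respiratory chain differed little between genotypes. Of 107 members tested, 3 rose in S87L and 0 fell. Of all genes tested, 12.9% were called, 5.17% higher and 7.71% lower, so the members' share lay under the background. Under quantile normalization 2 members rose and 1 fell, where 11.1% of all genes were called, and with GC and length trends removed 5 rose and 1 fell, where 21.5% were. At an unadjusted p under 0.05 there were 10 of the 107 members, against 29.1% of all genes tested. Of the 9 members under the filter, 4 were pseudogenes, 2 were nuclear genes (Cox7b2 and Cox8c), 2 were mitochondrial (mt-Nd3 and mt-Atp8) and 1 was the additional Atp5o identifier. The summed FPKM of the 93 nuclear genes was 7012, 7007 and 6765 in S87L spinal cord and 7131, 6653 and 7109 in wild-type spinal cord, and the groups overlapped. The median fold change of the 91 nuclear genes tested was 0.00 on the log2 scale, beside -0.02 over all genes, and the median half-width of their 95% confidence intervals was 0.11.

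The called nuclear genes were 2 muscle-type isoforms of complex IV and the iron-sulfur subunit of complex III. Cox6a2, the isoform of subunit VIa found in heart and skeletal muscle (chromosome 7, 128205435 to 128206387, minus strand), had 3.66, 3.43 and 2.91 FPKM in S87L spinal cord and 0.975, 0.298 and 1.0 FPKM in wild-type spinal cord. All S87L libraries lay above all wild-type libraries, with a log2 fold change of 1.66 (SE 0.24, limma adjusted p = 0.00622). Its adjusted p lay between 0.00186 and 0.0417 when each library was left out in turn, and between 0.00383 and 0.0226 under the 11 other settings tried. Cox6a2 lies within the annotated span of Itgad, a leukocyte integrin gene on the plus strand (chromosome 7, 128154376 to 128223816), which had 0.394, 0.586 and 0.546 FPKM in S87L spinal cord and 0.380, 0.420 and 0.424 FPKM in wild-type spinal cord. Itgad was under the filter, and since the use of strand in counting is not given, its part in the Cox6a2 values was not tested.

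Cox8b, the heart and muscle isoform of subunit VIII (chromosome 7, 140898945 to 140900446, minus strand), had 5.93, 5.14 and 3.87 FPKM in S87L spinal cord and 2.45, 1.88 and 2.66 FPKM in wild-type spinal cord. The groups did not overlap, and the log2 fold change was 0.95 (SE 0.16, limma adjusted p = 0.0108). Without S87L replicate 2 the adjusted p was 0.0536, and without each of the other 5 libraries the gene was still called. In both genotypes these isoforms were a small share of their ubiquitous partners. Cox6a2 stood at 1.17% to 1.30% of the Cox6a1 level in S87L spinal cord and at 0.119% to 0.355% in wild-type spinal cord. The Cox8b level was 1.29% to 1.80% of the Cox8a level in S87L spinal cord and 0.643% to 0.800% in wild-type spinal cord.

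Transcripts of skeletal muscle moved in the same direction in the same libraries. Of 15 tested genes on a list of 17 skeletal muscle genes, 14 rose in S87L spinal cord and 0 fell, with a median log2 fold change of 1.67. The summed FPKM of the list was 223 to 231 in S87L and 146 to 159 in wild-type spinal cord, a sum that includes Pvalb, which is also expressed in neurons and did not pass the test. Acta1, skeletal muscle actin, had 21.4, 21.1 and 19.2 FPKM in S87L spinal cord and 4.85, 3.56 and 3.47 FPKM in wild-type spinal cord. Of 2 tested brown fat genes on a list of 3, Ucp1 rose (1.40, 1.16 and 0.917 FPKM in S87L, against 0.675, 0.661 and 0.710 FPKM in wild-type, limma adjusted p = 0.0433) and Cidea was not called (log2 fold change -0.09). The summed FPKM of the brown fat list overlapped, with 5.60 to 6.44 in S87L and 5.67 to 6.20 in wild-type spinal cord. Genes of meninges and fibroblasts rose in 7 of 8 cases, with summed FPKM of 46.6 to 48.5 in S87L and 23.0 to 25 in wild-type spinal cord. On lists of other cell types, 5 of 7 microglial genes, 4 of 7 pericyte and smooth muscle genes and 3 of 5 red blood cell genes rose and 0 of each fell. Of 2 tested heart and slow muscle genes 1 rose and 0 fell, of 6 astrocyte genes 2 rose and 1 fell, and of 7 oligodendrocyte genes 1 rose and 1 fell. Of 4 endothelial genes 0 were called, with 2 at an unadjusted p under 0.05. Of 9 neuronal genes, 0 rose and 2 fell. The part of muscle or meningeal RNA in the Cox6a2 and Cox8b differences was not tested.

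For Cox7a1, the muscle isoform of subunit VIIa, no difference was detected. It had 9.59, 8.23 and 5.71 FPKM in S87L spinal cord and 8.36, 8.72 and 7.53 FPKM in wild-type spinal cord, and the groups overlapped (log2 fold change -0.09, SE 0.16, limma adjusted p = 0.770). Cox4i2, the isoform of subunit IV known from lung and from cells that sense oxygen, had 1.61, 2.18 and 1.63 FPKM in S87L and 2.24, 2.14 and 1.30 FPKM in wild-type spinal cord, again with overlap. Cox6b2, the testis isoform of subunit VIb, had 1.65, 2.78 and 1.40 FPKM in S87L and 3.44, 2.38 and 2.65 FPKM in wild-type spinal cord (log2 fold change -0.47, SE 0.21, adjusted p = 0.185).

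Uqcrfs1, the Rieske iron-sulfur protein of complex III (chromosome 13, 30540308 to 30545362, minus strand), had 96.3, 98.7 and 94.3 FPKM in S87L spinal cord and 89.3, 83.8 and 89.0 FPKM in wild-type spinal cord. The groups did not overlap, but the difference was small (log2 fold change 0.14, SE 0.04, limma adjusted p = 0.0486). The call was lost when any of the 6 libraries was left out, with adjusted p between 0.0573 and 0.173, and held under 8 of the 11 other settings. The other 7 nuclear subunits of complex III were not called.

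Promoters of the 2 forms of subunit VIII are shown because the muscle form was called and the ubiquitous form, Cox8a, was not. They are RefSeq sequences on GRCm38.p6 from 250 bases before to 50 after the start of the gene, and capitals mark matches on either strand to the motifs listed after them.
Cox8b, chr7:140900397-140900696, minus strand: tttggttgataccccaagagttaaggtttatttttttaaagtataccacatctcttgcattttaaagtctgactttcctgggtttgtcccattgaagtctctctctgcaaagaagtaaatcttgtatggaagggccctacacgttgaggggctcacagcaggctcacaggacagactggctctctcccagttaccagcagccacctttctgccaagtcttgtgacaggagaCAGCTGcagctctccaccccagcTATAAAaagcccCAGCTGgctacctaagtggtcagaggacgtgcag
Cox8a, chr19:7217567-7217866, minus strand: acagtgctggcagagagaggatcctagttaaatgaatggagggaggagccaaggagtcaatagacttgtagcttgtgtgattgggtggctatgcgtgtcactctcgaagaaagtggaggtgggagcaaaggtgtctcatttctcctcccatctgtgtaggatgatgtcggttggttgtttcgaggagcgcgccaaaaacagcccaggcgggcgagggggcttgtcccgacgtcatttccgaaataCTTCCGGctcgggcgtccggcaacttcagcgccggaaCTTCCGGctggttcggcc

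For Cox8b the capitals mark the E-box CANNTG and the TATA box TATAAA, and for Cox8a the motif of the ETS family, CCGGAAG. The Cox8a window also held 1 E-box match, left in lower case. The NRF1 motif (GCGCA, any base, then GCGC) had no match in either window. Promoters were found for 76 of the 93 nuclear genes, 81 promoters in all, and were searched on both strands. Matches of different motifs could overlap. The NRF1 motif was in 24.7% of these promoters and in 4.60% of 32851 promoters of all genes. The ETS motif was in 22.2% of respiratory chain promoters and 8.86% of all promoters, and the YY1 motif AAGATGGC in 13.6% of respiratory chain promoters and 2.75% of all. The estrogen-related receptor motif AAGGTCA was in 9.88% of respiratory chain promoters and 4.72% of all. The E-box was in 70.4% of respiratory chain promoters and 72.3% of all promoters, the MEF2 motif (CTA, any 4 bases, then TAG) in 2.47% of respiratory chain promoters and 3.69% of all, and TATAAA in 9.88% of respiratory chain promoters and 13.6% of all. These are matches of letters within the window and do not show binding.

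The subunits of complex II, which has no mitochondrial gene, showed no call in spinal cord. Sdha, the flavoprotein of complex II, had 133, 133 and 136 FPKM in S87L and 136, 139 and 136 FPKM in wild-type spinal cord. Its membrane anchor Sdhc had 35.9, 35.9 and 36.5 FPKM in S87L and 34.6, 32.5 and 32.5 FPKM in wild-type (log2 fold change 0.12, SE 0.04, limma adjusted p = 0.0801). The Sdhc groups did not overlap; neither did those of 16 members in all, and of 35.1% of all genes tested. The iron-sulfur subunit Sdhb had 67.4, 67.7 and 67.2 FPKM in S87L and 68.4, 64.2 and 69.7 FPKM in wild-type spinal cord, with overlap (log2 fold change 0.00, adjusted p = 0.990). The other membrane anchor, Sdhd, had 83.1, 85.6 and 84.7 FPKM in S87L and 82.3, 79.9 and 82.4 FPKM in wild-type spinal cord (0.05, adjusted p = 0.321). Among the 44 nuclear complex I genes 0 were called and 5 had an unadjusted p under 0.05, with fold changes from -0.13 to 0.29. The highest fold change was that of Ndufa12, an accessory subunit, with 56.2, 46.1 and 41.9 FPKM in S87L and 38.2, 36.4 and 42.5 FPKM in wild-type spinal cord, where the groups overlapped (adjusted p = 0.122). Its pseudogene Gm15920, which holds 17.7% of its words, had 33.5, 64.4 and 81.4 FPKM in S87L and 78.6, 79.4 and 80.2 FPKM in wild-type spinal cord.

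No difference in the mitochondrial genes of spinal cord was detected: 0 of 11 tested were called, and 0 had an unadjusted p under 0.05. mt-Nd1, a complex I core subunit, had 2967, 2839 and 3215 FPKM in S87L and 2937, 3461 and 3439 FPKM in wild-type spinal cord. mt-Cytb, the cytochrome b of complex III, had 3437, 3268 and 3721 FPKM in S87L and 3346, 3965 and 3921 FPKM in wild-type. The groups overlapped for both genes. The 95% confidence interval of the log2 fold change was -0.29 to 0.05 for mt-Nd1 and -0.28 to 0.07 for mt-Cytb. The fold change furthest from 0 was that of mt-Atp6 (-1.68), with an SE of 0.83 and an adjusted p of 0.232. The 13 genes took 2.10% to 2.41% of the reads of protein-coding genes in S87L and 2.05% to 2.55% in wild-type spinal cord. Summed over all 13 genes, the level was 17238 ± 1179 FPKM in S87L and 18275 ± 1997 FPKM in wild-type spinal cord (SD, n = 3 each).

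**Figure D2:**
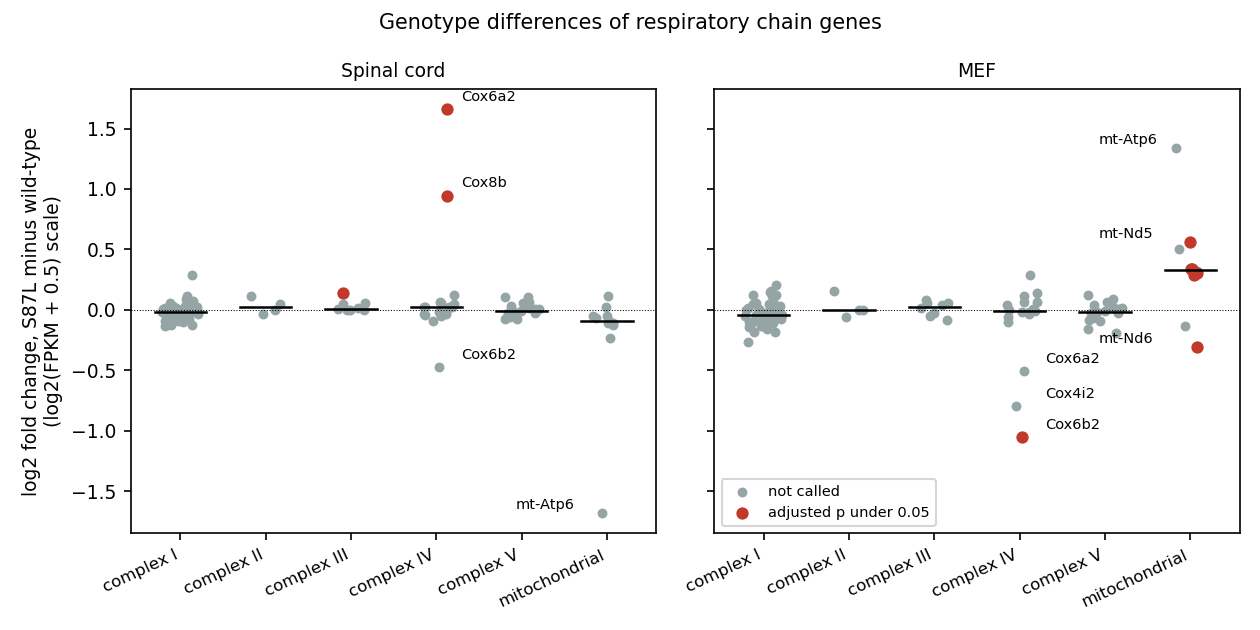
Log2 fold changes, S87L minus wild-type on the log2(FPKM + 0.5) scale (y axis), of nuclear genes by complex and of mitochondrial genes (x axis), in spinal cord and in MEF; bars are medians and red points have a limma adjusted p under 0.05. In spinal cord the red points are Cox6a2, Cox8b and Uqcrfs1, and in MEF they are Cox6b2 and 6 mitochondrial genes.

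In MEF the differences lay in the mitochondrial genes and in Cox6b2. Of 103 members tested, 5 rose and 2 fell in S87L MEF, against 11.2% of all genes tested that were called in either direction, 4.91% higher and 6.32% lower. Of the 10 mitochondrial genes tested, 5 rose (mt-Nd1, mt-Nd2, mt-Nd5, mt-Cytb and mt-Co1) and 1 fell (mt-Nd6). Of the 90 nuclear genes tested, 0 rose and 1 fell, and the nuclear genes of complexes I, II, III and V had 0 calls, with 4 of the 44 of complex I at an unadjusted p under 0.05, against 27.9% of all genes tested. The 13 mitochondrial genes took 0.907% to 1.03% of the reads of protein-coding genes in S87L MEF and 0.745% to 0.789% in wild-type MEF. The median log2 fold change was 0.33 over the mitochondrial and -0.02 over the nuclear genes, beside -0.01 over all genes.

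mt-Nd5, a proton-pumping subunit of complex I at chrM 11742 to 13565, had 1005 and 812 FPKM in S87L MEF and 618, 641 and 580 FPKM in wild-type MEF. Its groups did not overlap, and the log2 fold change was 0.56 (SE 0.10, limma adjusted p = 0.0236). mt-Nd1 had 1476 and 1333 FPKM in S87L MEF and 1099, 1158 and 1072 FPKM in wild-type MEF (log2 fold change 0.34, SE 0.06, adjusted p = 0.0177). mt-Nd2 had 904 and 796 FPKM in S87L MEF and 670, 696 and 648 FPKM in wild-type MEF (0.34, SE 0.06, adjusted p = 0.0227). Every S87L value of these genes lay above every wild-type value.

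mt-Cytb had 1612 and 1504 FPKM in S87L MEF and 1265, 1330 and 1233 FPKM in wild-type MEF, a log2 fold change of 0.29 (SE 0.05, limma adjusted p = 0.0195). mt-Co1 had 2197 and 1937 FPKM in S87L MEF and 1633, 1709 and 1675 FPKM in wild-type MEF (0.30, SE 0.06, adjusted p = 0.0263). mt-Nd4, a further complex I subunit, had 584 and 476 FPKM in S87L MEF and 412, 434 and 418 FPKM in wild-type MEF but was not called (0.32, SE 0.09, adjusted p = 0.0679). In each of these 6 genes S87L replicate 1 was the highest library and S87L replicate 2 lay above all wild-type libraries; the groups did not overlap for 22 members, and for 45.8% of all genes tested. Of the low mitochondrial genes, mt-Atp6 (1.34, adjusted p = 0.146), mt-Co2 (0.50, adjusted p = 0.224) and mt-Co3 (-0.14, adjusted p = 0.820) were not called. Among nuclear copies, Gm10925 (0.43, limma adjusted p = 0.0375), Gm28438 (0.49, adjusted p = 0.0171) and Gm29216 (0.44, adjusted p = 0.0223) were called higher in S87L MEF. They are copies of mt-Atp6, mt-Nd3 and part of mt-Co1, with 10 to 24 reads per MEF library. Gm28437 (0.01), Gm28439 (0.14) and Gm28661 (0.58) were not called.

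mt-Nd6, a complex I subunit encoded on the opposite strand (chrM 13552 to 14070, minus strand), went the other way. It had 154 and 166 FPKM in S87L MEF and 200, 206 and 186 FPKM in wild-type MEF, without overlap (log2 fold change -0.30, SE 0.06, limma adjusted p = 0.0239). The library kit keeps the strand, but whether counting used it is not stated, so reads from the 2 strands at this gene cannot be told apart. mt-Rnr1, a mitochondrial ribosomal RNA and no member, had 1849 and 1673 FPKM in S87L MEF and 1520, 1584 and 1525 FPKM in wild-type MEF (log2 fold change 0.19, adjusted p = 0.0703).

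These calls rest on few libraries. Without wild-type MEF replicate 1, or without replicate 2, 1 member was called (1 lower). Without wild-type replicate 3 there were 3 (1 higher, 2 lower). Of all genes tested, 4.48%, 4.27% and 4.10% were called in these 3 fits. Without S87L replicate 1, or without S87L replicate 2, 1 S87L library remains, so no count of calls is given for these fits. The fold changes of the 6 genes on the plus strand, mt-Nd1, mt-Nd2, mt-Nd4, mt-Nd5, mt-Cytb and mt-Co1, ranged from 0.15 to 0.71 over every setting tried. As their groups did not overlap, leaving out a library could not turn the sign. Libraries rescaled to equal sums of genes not encoded in mitochondria gave 2 higher and 2 lower, and quantile normalization gave 1 higher and 2 lower. Marker genes also moved in MEF. Of 7 pericyte and smooth muscle genes 1 rose and 2 fell, and of 7 microglial genes 0 rose and 1 fell. Of 7 meningeal and fibroblast genes tested, 0 rose and 4 fell. The summed FPKM of the meningeal and fibroblast list was 3239 to 3505 in S87L MEF and 3755 to 3775 in wild-type MEF. Of 3 tested neuronal genes 2 rose and 0 fell, and of 5 tested skeletal muscle genes 1 rose and 2 fell. Of 2 tested heart and slow muscle genes, and of 2 tested astrocyte genes, 0 rose and 1 fell. Of 3 tested oligodendrocyte genes and 1 tested endothelial gene 0 were called, with the endothelial gene at an unadjusted p under 0.05. The part of cell composition in the mitochondrial differences was not tested.

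**Figure D3:**
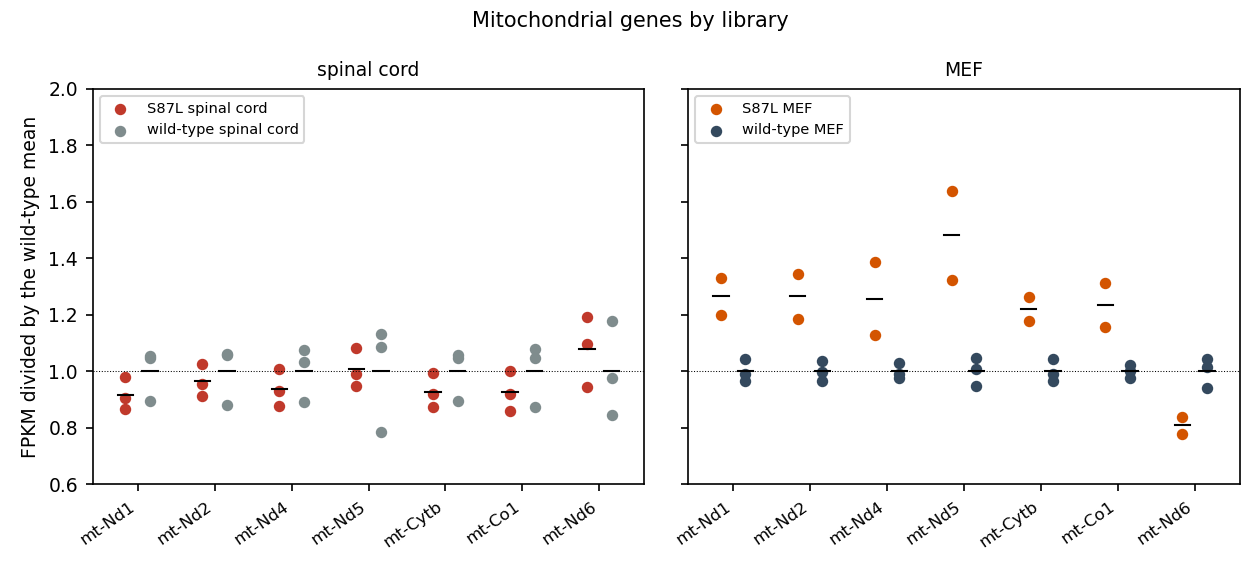
FPKM of 7 mitochondrial genes in each library divided by the wild-type mean of the tissue (y axis, ratio), for S87L (left points) and wild-type (right points) in spinal cord and in MEF; bars are group means. In MEF both S87L libraries lie above the wild-type libraries in 6 genes and below them in mt-Nd6, while in spinal cord the groups overlap.

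In some libraries the mitochondrial and nuclear genes deviated in opposite directions. S87L MEF replicate 1 held the lower of the 2 S87L values for 69 of 75 nuclear subunits and the higher value for 6 of 6 mitochondrial genes. The summed nuclear level was 3515 and 3997 FPKM in S87L MEF and 3891, 3728 and 3694 FPKM in wild-type MEF. In wild-type spinal cord replicate 2 was lowest for 63 of 75 nuclear subunits and highest for 5 of 6 mitochondrial genes. In wild-type MEF, in contrast, replicate 3 was lowest for 37 of 75 nuclear subunits and for 4 of 6 mitochondrial genes, and had the lowest sum of its group for both. The summed mitochondrial level was 7945 and 7033 FPKM in S87L MEF and 5907, 6181 and 5818 FPKM in wild-type MEF. The ratio of mitochondrial to nuclear sums was 2.26 and 1.76 in S87L MEF and 1.52, 1.66 and 1.57 in wild-type MEF. The part of RNA quality or library preparation in these opposite deviations was not tested.

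Cox6b2, the testis isoform of the complex IV subunit that bridges the dimer (chromosome 7, 4751792 to 4753094, minus strand), was the nuclear gene that fell in MEF. It had 1.37 and 1.81 FPKM in S87L MEF and 3.83, 3.97 and 3.64 FPKM in wild-type MEF, and the groups stood well apart. The log2 fold change was -1.05 (SE 0.10, limma adjusted p = 0.00288). The adjusted p stayed under 0.05 without each wild-type library in turn and under all 11 other settings (0.000569 to 0.0375 over these settings). Leaving out an S87L library leaves 1 of them, so no p-value is given for those fits. The ubiquitous partner Cox6b1 had 139 and 163 FPKM in S87L MEF and 141, 135 and 134 FPKM in wild-type MEF (adjusted p = 0.256). The Cox6b2 level was thus 0.990% to 1.11% of the Cox6b1 level in S87L MEF and 2.72% to 2.95% in wild-type MEF. Summed over 5 germ cell genes of the testis, levels were 0.202 to 0.409 FPKM in S87L MEF and 0.364 to 0.491 FPKM in wild-type MEF, with 0 of the 5 past the filter.

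Other low isoforms of complex IV had lower values in S87L MEF without a call. Cox4i2 had 0.184 and 0.332 FPKM in S87L MEF and 0.743, 1.12 and 0.618 FPKM in wild-type MEF (log2 fold change -0.80, SE 0.21, limma adjusted p = 0.0578). Cox6a2 had 1.81 and 1.41 FPKM in S87L MEF and 2.48, 1.94 and 3.17 FPKM in wild-type MEF (-0.51, SE 0.18, adjusted p = 0.139). Cox8b was at 0 reads in both S87L and all wild-type MEF libraries, where 3 reads correspond to 0.604 to 0.726 FPKM in S87L and 0.580 to 0.611 FPKM in wild-type MEF. Cox8c was at 0 in all 11 libraries, and Cox7b2 had 4 reads in S87L and 2 in wild-type spinal cord and 0 in MEF. Ndufa4l2, the paralog of the complex IV subunit Ndufa4, had 1.32 and 1.11 FPKM in S87L MEF and 1.14, 0.670 and 0.953 FPKM in wild-type MEF, with overlap.

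**Figure D4:**
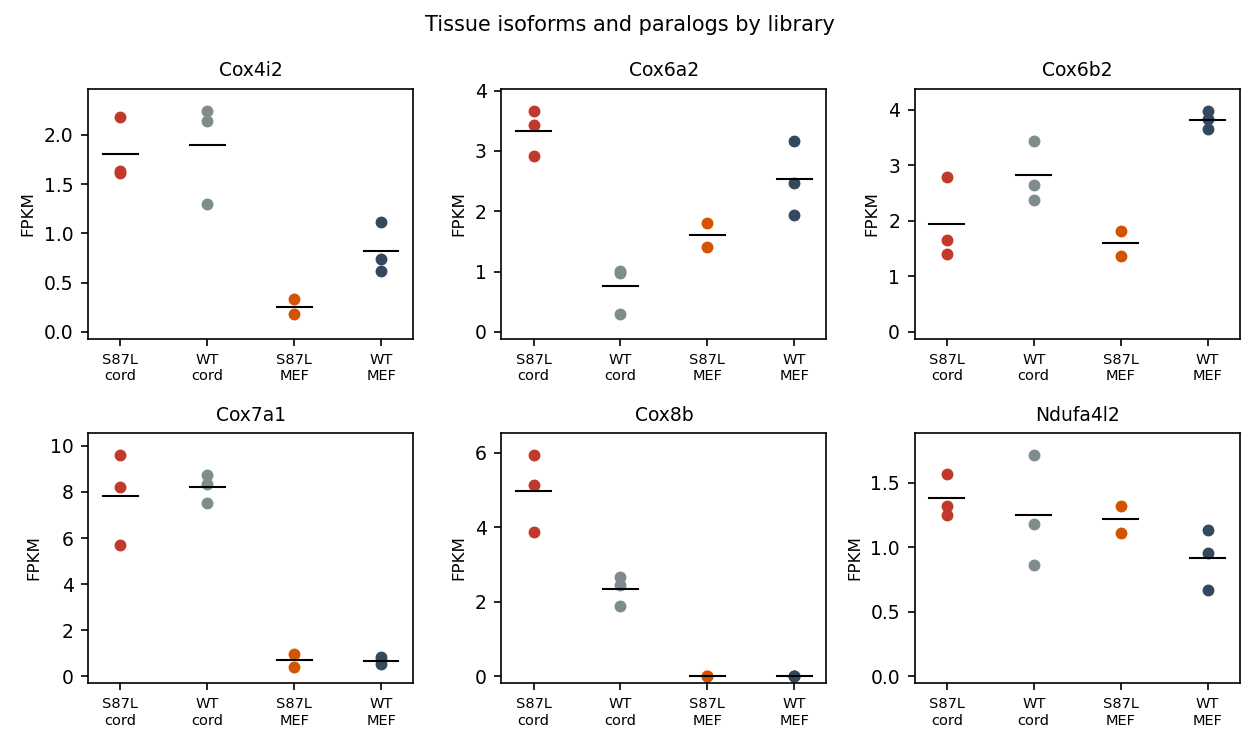
FPKM per library (y axis) of 6 low-level isoforms and paralogs of complex IV subunits in S87L and wild-type spinal cord and MEF (x axis); bars are group means. Cox6a2 and Cox8b are higher in S87L than in wild-type spinal cord, Cox6b2 is lower in S87L than in wild-type MEF, and Cox8b is at 0 in all MEF libraries.

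The genotype effect differed between tissues for 4 of 105 members tested, 2 of them higher and 2 lower, against 13.1% of all genes tested, 6.14% higher and 6.98% lower (limma interaction term, effect in MEF minus effect in spinal cord). The difference was -2.17 for Cox6a2 (SE 0.37, adjusted p = 0.00547) and 0.46 for mt-Nd1 (SE 0.11, adjusted p = 0.0181). It was 0.39 for mt-Cytb (SE 0.10, adjusted p = 0.0329), with the call lost in 7 of 11 fits without 1 library. For Cox8b it was -0.95 (SE 0.21, adjusted p = 0.0143), with 0 reads in every MEF library. mt-Nd2 (0.39), mt-Co1 (0.41), mt-Nd4 (0.41) and mt-Nd5 (0.53) were not called, with adjusted p of 0.0544, 0.0567, 0.0665 and 0.125, and neither was mt-Nd6 (-0.42, adjusted p = 0.154). For Cox6b2 the difference did not pass this test (-0.58, SE 0.29, adjusted p = 0.218). The count was 8 without wild-type spinal cord replicate 1. With libraries rescaled on non-mitochondrial genes it was 0 higher and 5 lower, so mt-Nd1 and mt-Cytb both lost their call there.

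Between the tissues, respiratory chain expression was higher in wild-type spinal cord than in wild-type MEF for nearly every gene. Of 105 members tested, 99 were higher and 3 lower in spinal cord, against 87.6% of all genes tested that were called, 47.4% higher and 40.3% lower. The groups did not overlap for 102 members, and for 88.5% of all genes tested. The median log2 fold change was 0.95 over 91 nuclear genes and 1.83 over 10 mitochondrial genes, beside 0.12 over all genes tested. That median of all genes moved to -0.15 under quantile normalization and to -0.18 with the GC and length trend removed, so folds are read relative to it. With that trend removed 92 members were higher and 5 lower, and Sdhc (-0.024) and Atp5d (-0.31) turned to below 0. Tissue and any difference in preparation cannot be told apart here.

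Complex I showed the highest nuclear ratio and complex V the lowest. The summed FPKM of complex I genes was 2429 ± 106 in wild-type spinal cord and 1156 ± 35.9 in wild-type MEF (SD, n = 3 each), a ratio of 2.10. For complex II the sums were 319 ± 2.93 FPKM in spinal cord and 182 ± 3.55 FPKM in MEF, a ratio of 1.76. For complex III they were 756 ± 36.1 FPKM in spinal cord and 405 ± 14.2 FPKM in MEF, a ratio of 1.87. For complex IV they were 1973 ± 85.6 FPKM in spinal cord and 1012 ± 34.5 FPKM in MEF, a ratio of 1.95. For complex V the sums were 1486 ± 45.8 FPKM in spinal cord and 1017 ± 18.2 FPKM in MEF, a ratio of 1.46. The ratio of mitochondrial to nuclear sums was 2.63 ± 0.359 in spinal cord and 1.58 ± 0.0704 in MEF.

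The order of subunits was alike in the tissues, with a Spearman rho of 0.915 over 75 nuclear subunits that share gene models and libraries. In complex IV the highest mean was that of Cox8a in wild-type spinal cord, 319 FPKM, and that of Cox6a1 in wild-type MEF, 164 FPKM. Atp5b, the catalytic beta subunit of complex V, had means of 279 FPKM in wild-type spinal cord and 224 FPKM in wild-type MEF. Atp5a1, the alpha subunit, had the highest mean of complex V over all spinal cord libraries, 275 FPKM. In complex I Ndufa2 was highest, with 145 FPKM in spinal cord and 90.9 FPKM in MEF, and Ndufb2 was lowest, with 4.37 FPKM in spinal cord and 0.970 FPKM in MEF. Uqcr10 led complex III in spinal cord (164 FPKM) and in MEF (68.6 FPKM). Subunits that stand in a fixed ratio in the assembled complex thus spanned 33.1-fold in complex I and 19.4-fold in complex V in wild-type spinal cord. The level fell with the annotated exon length of the gene, by which FPKM divides (Spearman rho -0.59 in spinal cord and -0.49 in MEF over the 75 subunits), and Ndufb2 and Atp5l, the lowest of their complexes, have exon unions of 5628 and 6443 bases.

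Among nuclear genes, the widest tissue differences were in isoforms and accessory factors. Cox7a1 had 8.36, 8.72 and 7.53 FPKM in wild-type spinal cord and 0.684, 0.823 and 0.520 FPKM in wild-type MEF, a log2 fold change of 2.89 (SE 0.10, limma adjusted p = 5.97e-08). Atp5s, an associated factor of the ATP synthase, had 10.3, 10.5 and 9.88 FPKM in wild-type spinal cord and 2.37, 2.05 and 2.05 FPKM in wild-type MEF (2.02, SE 0.06, adjusted p = 2.28e-08). Ndufa6, an accessory subunit of complex I, had 50.7, 44.2 and 50.6 FPKM in spinal cord and 12.5, 11.3 and 13.1 FPKM in MEF (1.94, SE 0.07, adjusted p = 7.94e-08). Cox8b was at least 3.88-fold higher in wild-type spinal cord than the 3-read limit in wild-type MEF. Of the low mitochondrial genes, mt-Co2 was also called (1.78, SE 0.22, limma adjusted p = 0.000363). mt-Atp6 (2.52) and mt-Co3 (2.22) were called too, but without 1 library these 2 genes were called in 1 of 6 and 2 of 6 fits.

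The genes lower in spinal cord were Cox6a2, Cox6b2 and mt-Nd6. Cox6a2 had 0.975, 0.298 and 1.0 FPKM in wild-type spinal cord and 2.48, 1.94 and 3.17 FPKM in wild-type MEF (log2 fold change -1.30, SE 0.29, limma adjusted p = 0.00491). Cox6b2 had 3.44, 2.38 and 2.65 FPKM in spinal cord and 3.83, 3.97 and 3.64 FPKM in MEF (-0.39, SE 0.11, adjusted p = 0.0124). mt-Nd6 had 148, 178 and 128 FPKM in spinal cord and 200, 206 and 186 FPKM in MEF (-0.40, SE 0.12, adjusted p = 0.0216, called in 3 of 6 fits without 1 library), while mt-Nd5 beside it had 1792, 2585 and 2482 FPKM in spinal cord and 618, 641 and 580 FPKM in MEF (1.88, SE 0.15, adjusted p = 4.12e-05).

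The gene copies of the c-ring subunit of complex V differed in their balance. Atp5g3 made up 65.2% to 66.7% of their summed FPKM in wild-type spinal cord and 60.0% to 61.2% in wild-type MEF, and Atp5g1 made up 13.5% to 13.9% in spinal cord and 9.26% to 10.3% in MEF. Atp5g2 made up 19.8% to 21.0% in spinal cord and 28.5% to 30.2% in MEF, and its level was 36.0, 31.4 and 35.4 FPKM in spinal cord and 40.7, 39.0 and 35.6 FPKM in MEF (log2 fold change -0.16, adjusted p = 0.0562). A processed pseudogene of Atp5g2 holds 36.7% of its words. Atp5d (0.06) and Ndufa4l2 (0.29) were the other members not called between the tissues.

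**Figure D5:**
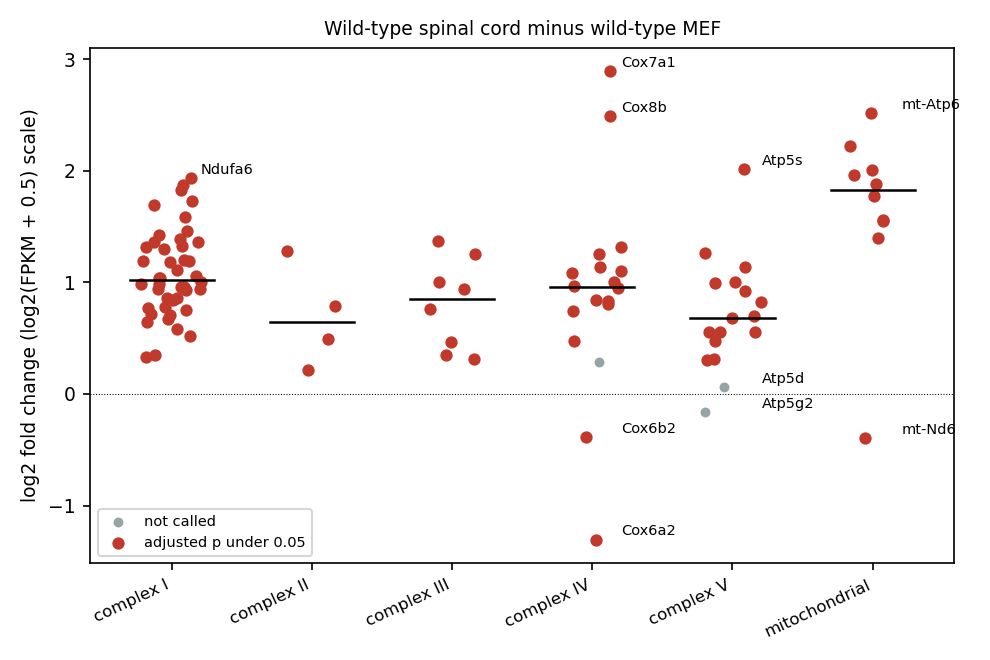
Log2 fold changes, wild-type spinal cord minus wild-type MEF on the log2(FPKM + 0.5) scale (y axis), of nuclear genes by complex and of mitochondrial genes (x axis); bars are medians and red points have a limma adjusted p under 0.05. Nearly all points lie above 0, with Cox6a2, Cox6b2 and mt-Nd6 called below 0.

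Genes that build, feed and regulate the chain were counted from lists of their own, to be read against the 12.9% of all genes called in spinal cord and the 11.2% called in MEF. Of 37 tested assembly factors outside the families above, 2 rose and 1 fell in S87L spinal cord, and 1 rose and 1 fell in S87L MEF. Those in spinal cord were Tmem70 (0.20), Cox20 (0.23) and Ttc19 (-0.20), and those in MEF Tmem70 (0.25) and Sdhaf1 (-0.37), on the log2 scale. Tmem70, an assembly factor of complex V, was called in both tissues. It had 20.7, 21.4 and 22.1 FPKM in S87L and 18, 18.8 and 18.9 FPKM in wild-type spinal cord (log2 fold change 0.20, limma adjusted p = 0.0209). In MEF it had 23.1 and 21.9 FPKM in S87L and 18.7, 18.6 and 19.0 FPKM in wild-type (0.25, adjusted p = 0.0179).

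Of 22 tested genes of mitochondrial DNA maintenance and transcription, 0 rose and 2 fell in S87L spinal cord, and 0 were called in MEF, where 2 had an unadjusted p under 0.05. Lrpprc, which stabilizes mitochondrial messenger RNAs, had 10.7, 10.9 and 11.1 FPKM in S87L and 12.2, 12 and 12.2 FPKM in wild-type spinal cord (log2 fold change -0.15, limma adjusted p = 0.0411). In MEF it had 12.3 and 12.5 FPKM in S87L and 10.9, 11.1 and 10.9 FPKM in wild-type. Its genotype effect differed between tissues (0.32, SE 0.05, adjusted p = 0.00214). Top1mt, the mitochondrial topoisomerase, also fell in spinal cord (-0.24, adjusted p = 0.0436).

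Of 17 tested genes for mobile carriers and coenzyme Q synthesis, Pdss1, which makes the side chain of coenzyme Q, fell in spinal cord (1.03, 1.26 and 1.5 FPKM in S87L, against 1.75, 1.99 and 1.78 FPKM in wild-type, limma adjusted p = 0.0474), and 0 of 16 were called in MEF, with 2 at an unadjusted p under 0.05. Of 15 regulators tested in spinal cord, the coactivator Ppargc1b fell (3.15, 2.97 and 3.03 FPKM in S87L, against 3.82, 3.81 and 3.54 FPKM in wild-type, adjusted p = 0.0251). Of 11 tested in MEF, the hypoxia factor Hif1a rose (62.8 and 58.8 FPKM in S87L, against 46.2, 46.6 and 45.0 FPKM in wild-type, log2 fold change 0.40, adjusted p = 0.00392). Of 18 citric acid cycle genes, 1 rose in S87L spinal cord (Ogdh, 0.14, adjusted p = 0.0351) and 3 rose in S87L MEF (Sucla2, Dlat and Suclg2, by 0.21, 0.19 and 0.27), and 0 fell in either tissue. Between the wild-type tissues, 47.4% of all genes tested were higher and 40.3% lower in spinal cord. Of 37 assembly factors 25 were higher and 5 lower, and of 18 citric acid cycle genes 14 were higher and 4 lower. Of 17 genes for mobile carriers and coenzyme Q synthesis 10 were higher and 3 lower. Of 22 genes of mitochondrial DNA maintenance and transcription 9 were higher and 6 lower. Of 15 regulators 6 were higher and 9 lower, with a median log2 fold change of -0.67, beside 0.12 over all genes.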

How the data were processed

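Total RNA was taken with TRIzol and strand-keeping libraries were made with a NEBNext Ultra II Directional kit, per the labels' protocols. The authors deposited 1 table of FPKM values, with 55487 Ensembl identifiers and a column for each of the 11 libraries. Trimmomatic 0.39, HISAT2 2.2.1, Picard 2.25.5, HTSeq 0.11.3 and the build GRCm38 are named per the submitters' processing notes. The sources used here do not give what each tool did, the annotation release, whether counting used strand, or any poly(A) or ribosomal RNA step.

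Symbols, coordinates and exon lengths came from a GENCODE annotation of GRCm38, which held 55227 of the identifiers. Whole reads recovered from the FPKM steps (98.5% to 98.6% within 0.05 of a whole number) gave depth, read counts, shares of reads and limits only. These limits cover counting error only. On log2(FPKM + 0.5), limma 3.58.1 (R 4.3.3, with trend and robust settings) was run separately for spinal cord and MEF, over all 11 libraries for the interaction, and over the 6 wild-type libraries for the tissues, keeping genes at a mean FPKM of 0.5 or more. The fit was tested on simulated data. All p-values are two-sided and adjusted over all genes tested.

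The members and lists were chosen with earlier results of these data known. Named were all called members, the mitochondrial genes, isoform pairs, the highest nuclear gene per complex and tissue, the largest fold changes, Uqcrfs1 and Sdha to Sdhd, and from the lists up to 3 called genes of smallest p. Other genes (copies, Itgad, Ndufb2, Atp5l, marker genes) were named after their values were seen. Alternatives were pseudocounts, filters, scalings, removal of GC and length trends, array weights, a replicate block and leaving out each library. Shared words are 50-base stretches of a gene's transcripts found in transcripts of another locus.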

Additional observations from a re-analysis of the deposited data

Results flagged for a closer look

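The genotype effect differed between the tissues in 4 genes by the limma interaction term over all 11 libraries (effect in MEF minus effect in spinal cord, log2 scale). Cox6a2 differed by -2.17, with a call under all 11 other settings and without each library of the groups of 3 in turn. Cox8b differed by -0.95; as no MEF library held a read of it, this restates the spinal cord effect. mt-Nd1 differed by 0.46 and mt-Cytb by 0.39, and these share libraries, genome and transcription unit, so they are not separate observations. Neither was called with libraries rescaled on genes not encoded in mitochondria.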

How the results depend on the processing

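Counts of called members moved by more than 1.5 times as follows. In spinal cord, 3 became 6 with libraries rescaled on genes not encoded in mitochondria and 6 with GC and length trends removed, where 15.6% (10.7% higher, 4.91% lower) and 21.5% (12.2% higher, 9.30% lower) of all genes were called in place of 12.9% (5.17% higher, 7.71% lower). In MEF, 7 became 3 without a filter, 3 under quantile normalization and 4 when rescaled, with 3.02%, 11.1% and 9.38% of all genes in place of 11.2%, and leaving out 1 library gave 1 to 18; where that left 1 S87L library, it was assumed to vary like the wild-type ones. For the tissue difference of the genotype effect, 4 became 7 with GC and length trends removed and 8 with array weights, with 16.6% and 14.7% of all genes in place of 13.1%, and leaving out 1 library gave 3 to 9. The cause was not tested. Between tissues, counts stayed at 97 to 103. Scaling also moved the split of all genes called: median ratio scaling gave 7.86% higher and 5.59% lower in spinal cord, rescaling gave 3.35% higher and 11.4% lower for the tissue difference, and quantile normalization gave 40.3% higher and 47.9% lower between tissues. The log2 ratio of summed nuclear FPKM was 0.062 in place of -0.007 in spinal cord when rescaled, and between tissues 0.77 in place of 0.88 under median ratio scaling and 0.95 without the 2 most abundant genes. With GC and length trends removed, Atp5d (-0.31) and Sdhc (-0.024) turned lower in spinal cord than in MEF, with the same values under the block.

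Whether replicate numbers pair the libraries could not be settled. Deviations from the group mean of same-numbered libraries correlated at 0.14, -0.08 and 0.18 in spinal cord and at -0.13 and -0.08 in MEF. In spinal cord, S87L replicates 1 and 3 correlated best with the same-numbered wild-type library, and S87L replicate 2 with wild-type replicate 1 (0.15). In MEF the deviations of the 2 S87L libraries mirror each other by construction, so their correlations cannot decide. With the replicate block the counts were 2 in spinal cord, 2 in MEF, 1 for the tissue difference and 102 between tissues, where 10.6%, 1.32%, 6.51% and 87.4% of all genes were called. With block and GC correction they were 8, 3, 2 and 97, where 17.3%, 4.07%, 8.84% and 88.5% of all genes were called.

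Of the named calls, 1 of 3 in spinal cord, 1 of 7 in MEF, 1 of 4 for the tissue difference and 31 of 36 between tissues held in every fit. Where a fit left 1 S87L MEF library, its spread came from the other groups. Genes under about 1 FPKM rest on few reads.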
